A study of Mus musculus with 12 samples.

Results

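The enzymes of serine synthesis and of folate one-carbon metabolism were followed in mouse liver across 2 diets and 2 library kits. They are Phgdh, Psat1, Psph, Shmt1, Shmt2, Mthfd1, Mthfd2, Aldh1l1, Gnmt and Mat1a, 10 genes taken by name out of the 27022 genes of the deposited table, and each has a row there. The control group was 3 female SJL/J mice on an AIN-93G diet with 50 ppm iron, and the iron-loaded group was 3 female SJL/J mice that had the same control diet from 3 weeks of age and an AIN-93G diet with 2% carbonyl iron from 6 weeks of age. Livers were taken at 11 weeks, after a fast and after perfusion with saline. Each diet was fed in 1 cage, and the effects of diet and of cage cannot be told apart. RNA of each liver went into a whole transcript library (Trad-KAPA) and into a library made from the 3’ ends of transcripts (3’-LEXO), which gave 12 libraries from 6 mice.

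Serine is made from a glycolytic intermediate in a short pathway in which PHGDH oxidizes phosphoglycerate, PSAT1 adds the amino group and PSPH removes the phosphate. Serine hydroxymethyltransferases then split serine to glycine and load the released carbon on tetrahydrofolate, where the MTHFD enzymes and ALDH1L1 change its oxidation state. The liver uses such carbon units and methionine to make S-adenosylmethionine through MAT1A, and GNMT consumes this methyl donor with glycine, so that its level is buffered.

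The libraries held 13834682 to 16553616 counts in Trad-KAPA and 10724672 to 14104236 in 3’-LEXO, and levels are in CPM, or counts per 1 M counts of the library. Differences between diets were tested with edgeR within each kit, as log2 of iron-loaded over control, and a gene was called at an adjusted p under 0.05. Of 6 hepatocyte markers, which together took 143120 to 154297 CPM in the control Trad-KAPA libraries, edgeR called 0 in either kit, with 0 and 1 at an unadjusted p under 0.05 in Trad-KAPA and 3’-LEXO and 0 by DESeq2. Of 5 genes known to respond to liver iron, edgeR called 4 as higher in Trad-KAPA and 3 of 4 tested in 3’-LEXO. The tested genes not called were also higher without overlap. They were Hamp in Trad-KAPA (5.14-fold, edgeR adjusted p = 0.0667) and Id1 in 3’-LEXO (3.15-fold, edgeR adjusted p = 0.0531). These are levels in whole tissue, where fewer cells of a type and less RNA per cell cannot be told apart.

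In Trad-KAPA, 4 of the 9 enzymes that could be tested differed between the diets: Psat1 rose, and Shmt1, Shmt2 and Mthfd1 fell. Of all 13151 genes tested in this kit 17.1% were called, 8.77% as higher and 8.37% as lower in iron-loaded mice. In 3’-LEXO edgeR called 0 of the 9, where 6.1% of the 13301 genes tested were called, 3.17% as higher and 2.92% as lower. At an unadjusted p under 0.05 there were 4 of the 9 enzymes in 3’-LEXO, beside 25% of all genes tested. DESeq2 called 2 of them there, beside 9.43% of the 13923 genes to which it gave an adjusted p. The 9 enzymes had a median log2 difference of -0.43 in Trad-KAPA, where that of all genes tested was 0.02. Their median in 3’-LEXO was -0.23, beside 0.01 for all genes.

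**Figure D1:**
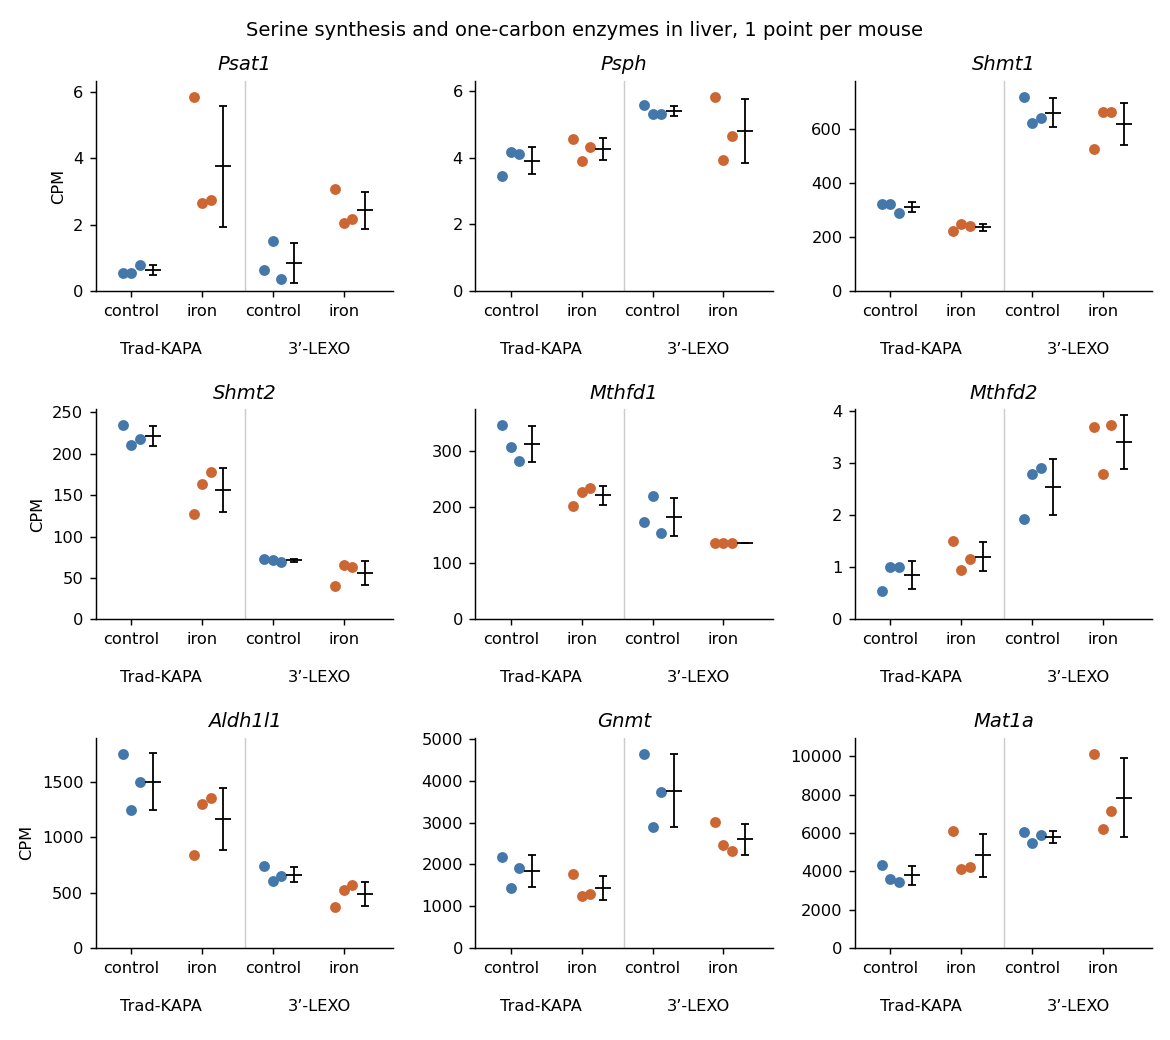
Level of the 9 tested enzymes in CPM (linear axes from 0) in each library, with 1 point per mouse, blue for control and orange for iron-loaded; the horizontal marks and bars are the mean and SD of 3 mice. In Trad-KAPA the iron-loaded points of Psat1 lie above, and those of Shmt1, Shmt2 and Mthfd1 below, all control points of the same gene.

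Phgdh, whose product opens the serine pathway, was at the limit of detection in these livers. Its counts were 0, 0 and 1 in the control mice and 1, 1 and 3 in the iron-loaded mice in Trad-KAPA, and 1, 2 and 0 and then 0, 0 and 2 in 3’-LEXO. No library exceeded the 3 counts that a count of 0 still allows, which are 0.181 to 0.217 CPM in Trad-KAPA and 0.213 to 0.280 CPM in 3’-LEXO, so that no difference between diets was detectable at this depth. Phgdh (ENSMUSG00000053398) lies on the minus strand of chromosome 3 of GRCm38 from 98313170 to 98339990. Of its 50-base stretches, 47.78% also occur in transcripts of other genes, pseudogenes such as Gm7901 and Gm9347 among them, and so do 35.06% of those in the last 300 bases of its longest coding transcript. Reads from such stretches do not map uniquely and were not counted, and their part in the low counts was not tested. For the other 9 enzymes these shares were at most 1.25%, and 0% in the last 300 bases.

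Psat1, the aminotransferase of the pathway, was near the detection limit in control liver and rose on the iron-loaded diet. In Trad-KAPA it had 9, 8 and 11 counts in the control mice and 82, 39 and 38 in the iron-loaded mice, or 0.544, 0.536 and 0.795 CPM against 5.85, 2.66 and 2.73 CPM. All iron-loaded mice were above all control mice, and mouse 1 stood highest. The level rose 5.65-fold, by 2.498 ± 0.401 on the log2 scale (SE, n = 3 per diet, edgeR adjusted p = 0.00792), and it was called in each of the 6 fits that left out 1 mouse. In 3’-LEXO the counts were 9, 21 and 5 against 40, 22 and 24, or 0.643, 1.503 and 0.355 CPM against 3.07, 2.05 and 2.18 CPM. The groups did not overlap there either, but the log2 difference of 1.49 ± 0.46 was not called (edgeR adjusted p = 0.0807), except without the expression filter, at an adjusted p of 0.00742. When 1 mouse was left out it lay between 1.15 and 2.19 and stayed uncalled, and the 2.19 came without control mouse 2 (edgeR adjusted p = 0.0528), whose 21 counts were the most of the control mice. Psat1 (ENSMUSG00000024640) lies on the minus strand of chromosome 19 from 15904678 to 15947337.

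Psph, the phosphatase that completes serine synthesis, was the most abundant of these 3 genes in control mice. Its levels were 3.44, 4.15 and 4.12 CPM in control and 4.57, 3.89 and 4.31 CPM in iron-loaded mice in Trad-KAPA, and 5.57, 5.30 and 5.32 against 5.83, 3.92 and 4.64 CPM in 3’-LEXO. The diets overlapped in both kits, and the log2 differences were 0.05 ± 0.18 (edgeR adjusted p = 0.858) and -0.23 ± 0.21 (edgeR adjusted p = 0.533). Psph (ENSMUSG00000029446, chromosome 5, 129765558 to 129787449, minus strand) shares 452 exonic bases with Cct6a on the opposite strand, and it was not stated whether the counting used strand.

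Shmt1 encodes the cytosolic serine hydroxymethyltransferase, and in Trad-KAPA it fell on the iron-loaded diet. Its levels were 323, 324 and 291 CPM in control mice and 223, 248 and 240 CPM in iron-loaded mice, without overlap. The level fell by 0.47 on the log2 scale (SE 0.11, edgeR adjusted p = 0.0275), or 1.38-fold. In 3’-LEXO it was 721, 622 and 642 CPM against 528, 664 and 663 CPM. Only iron-loaded mouse 1 lay below the control mice there, and the log2 difference was -0.15 ± 0.17 (edgeR adjusted p = 0.622).

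Shmt2, the mitochondrial form, was lower in every iron-loaded mouse than in every control mouse in both kits. In Trad-KAPA its levels were 235, 211 and 218 CPM against 127, 163 and 178 CPM, and it fell by 0.57 on the log2 scale (SE 0.15, edgeR adjusted p = 0.0395), or 1.48-fold. In 3’-LEXO the control mice had 73.2, 71.6 and 69.2 CPM and the iron-loaded mice 40.0, 65.9 and 63.5 CPM. Iron-loaded mouse 1 stood apart from the other two, and the log2 difference of -0.39 ± 0.20 was not called (edgeR adjusted p = 0.263).

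Shmt1 (ENSMUSG00000020534) lies on chromosome 11 from 60788104 to 60811718 and Shmt2 (ENSMUSG00000025403) on chromosome 10 from 127517123 to 127522444, both on the minus strand. Exons of Shmt1 overlap 184 bases of Smcr8 and those of Shmt2 overlap 32 bases of Ndufa4l2, each on the opposite strand. The log2 ratio of Shmt2 to Shmt1 counts in the same library, which does not depend on library size, was -0.50 ± 0.11 (SD, n = 3) in control and -0.61 ± 0.19 in iron-loaded mice in Trad-KAPA (exact permutation test, two-sided, p = 0.6). In 3’-LEXO it was -3.21 ± 0.09 and -3.48 ± 0.21, lower in each iron-loaded mouse (p = 0.1 in the same exact permutation test, which is the lowest value possible with 3 against 3 mice). That difference of -0.27 was -0.15 without iron-loaded mouse 1.

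Mthfd1 encodes the cytosolic enzyme with 3 folate activities, and its product makes the formyl and methylene forms of tetrahydrofolate. In Trad-KAPA its levels were 345, 306 and 282 CPM in control mice and 201, 226 and 234 CPM in iron-loaded mice, and it fell by 0.56 on the log2 scale (SE 0.12, edgeR adjusted p = 0.0212), or 1.48-fold. In 3’-LEXO they were 174, 220 and 153 CPM against 136, 136 and 136 CPM. The groups did not overlap in either kit, and the iron-loaded libraries of 3’-LEXO differed by less than 1 CPM. The 3’-LEXO log2 difference was -0.48 ± 0.15 (edgeR adjusted p = 0.0914), and DESeq2 called it (adjusted p = 0.0455). Mthfd1 (ENSMUSG00000021048) lies on the plus strand of chromosome 12 from 76255298 to 76319803.

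The 3 calls of lower levels in Trad-KAPA were lost in most of the fits that left out 1 mouse. Without iron-loaded mouse 1 each was still called, and Mthfd1 was also called without control mouse 3. Of the other fits that left out 1 mouse (control mouse 1, 2 or 3, or iron-loaded mouse 2 or 3), edgeR gave adjusted p from 0.0601 to 0.0843 for Shmt1, 0.0515 to 0.110 for Shmt2 and 0.0524 to 0.0705 for Mthfd1. The log2 differences in all 6 fits stayed between -0.52 and -0.39 for Shmt1, -0.68 and -0.41 for Shmt2, and -0.61 and -0.47 for Mthfd1. With the replicate number as a block, Shmt1 was not called (edgeR adjusted p = 0.0503). Shmt1, Shmt2 and Mthfd1 were called by DESeq2, with adjusted p of 0.00237, 0.00939 and 0.000995.

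The promoters of the genes called in Trad-KAPA are given as the 250 bases before the RefSeq start in GRCm38.p6, 5′ to 3′ on the strand of the gene. They are chr19:15925060-15925309 for Psat1, chr11:60811266-60811515 for Shmt1 and chr10:127522445-127522694 for Shmt2, all on the minus strand, and chr12:76254982-76255231 on the plus strand for Mthfd1. Capitals mark the letters CCAAT on either strand (CCAAT or ATTGG).
Psat1: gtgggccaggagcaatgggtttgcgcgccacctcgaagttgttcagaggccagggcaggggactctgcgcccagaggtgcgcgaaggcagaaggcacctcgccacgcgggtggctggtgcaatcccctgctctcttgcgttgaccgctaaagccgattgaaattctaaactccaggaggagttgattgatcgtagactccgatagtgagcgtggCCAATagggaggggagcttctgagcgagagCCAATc
Shmt1: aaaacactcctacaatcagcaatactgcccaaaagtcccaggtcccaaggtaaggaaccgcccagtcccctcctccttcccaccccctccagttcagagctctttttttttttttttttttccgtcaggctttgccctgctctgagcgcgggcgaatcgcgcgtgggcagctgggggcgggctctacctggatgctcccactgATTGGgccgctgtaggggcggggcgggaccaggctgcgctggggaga
Shmt2: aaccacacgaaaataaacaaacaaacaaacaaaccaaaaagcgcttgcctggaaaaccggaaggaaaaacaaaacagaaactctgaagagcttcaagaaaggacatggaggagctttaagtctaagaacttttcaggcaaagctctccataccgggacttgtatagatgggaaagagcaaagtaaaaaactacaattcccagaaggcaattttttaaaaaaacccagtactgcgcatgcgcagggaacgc
Mthfd1: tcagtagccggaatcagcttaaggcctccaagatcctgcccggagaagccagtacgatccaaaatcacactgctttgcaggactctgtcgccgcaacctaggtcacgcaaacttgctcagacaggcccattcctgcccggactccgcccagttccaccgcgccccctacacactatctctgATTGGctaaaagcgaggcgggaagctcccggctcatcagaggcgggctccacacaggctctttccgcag

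Psat1, the gene that rose, holds CCAAT at 2 places in this window, and the first letters of these lie 36 and 6 bases before the start. Shmt1 and Mthfd1 hold 1 each, 47 and 69 bases before the start, and the window of Shmt2 holds 0. RefSeq windows were found for 9 of the 10 enzymes, Mat1a having no entry, and 8 of the 9 hold the letters in at least 1 window. Counted by window, 8 of the 10 windows of these genes hold them, and 33.8% of all 32817 windows of the same length do. Psat1 has another RefSeq start, whose window (chr19:15924623-15924872) holds 0. The letters TGATGNAA, as in sites bound by ATF4 with a C/EBP partner, were in 0 windows of the 9 genes on either strand and in 3.45% of all windows, and the letters TGACNNNGC, as in sites read by NRF2, were in that of Phgdh alone and in 10.2% of all windows. None of these matches was tested for binding, and the windows cover only 250 bases.

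Mthfd2, the mitochondrial counterpart of Mthfd1 that is best known from embryonic and dividing cells, was scarce. Its counts were 9, 15 and 14 in control and 21, 14 and 16 in iron-loaded mice in Trad-KAPA, and 27, 39 and 41 against 48, 30 and 41 in 3’-LEXO. The diets overlapped in both kits, with log2 differences of 0.43 ± 0.37 (edgeR adjusted p = 0.442) and 0.36 ± 0.27 (edgeR adjusted p = 0.440). Relative to Mthfd1 in the same library, Mthfd2 was higher in each iron-loaded mouse than in each control mouse in both kits. The log2 ratio differed by 1.02 in Trad-KAPA (-8.56 ± 0.65 in control and -7.54 ± 0.43 in iron-loaded mice, SD, n = 3) and by 0.84 in 3’-LEXO (-6.17 ± 0.41 and -5.33 ± 0.23), each with an exact permutation p of 0.1, the smallest possible (two-sided). Without control mouse 1, which had 9 counts of Mthfd2, the Trad-KAPA difference was 0.65, and that in 3’-LEXO lay between 0.68 and 1.07 when 1 mouse was left out. Mthfd2 (ENSMUSG00000005667) lies on the minus strand of chromosome 6 from 83305691 to 83325908.

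Aldh1l1, the cytosolic dehydrogenase that releases the carbon unit of formyl-tetrahydrofolate as carbon dioxide, was lowest in iron-loaded mouse 1 in both kits. In Trad-KAPA the levels were 1760, 1247 and 1506 CPM in control and 843, 1302 and 1356 CPM in iron-loaded mice, which overlapped. In 3’-LEXO they were 742, 604 and 647 CPM against 369, 522 and 573 CPM, without overlap. The log2 differences were -0.43 ± 0.22 (edgeR adjusted p = 0.213) and -0.50 ± 0.21 (edgeR adjusted p = 0.169). Aldh1l1 (ENSMUSG00000030088, chromosome 6, 90486427 to 90600203, plus strand) shares 499 exonic bases with the antisense gene Gm15756.

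Gnmt, which uses S-adenosylmethionine to methylate glycine, and Mat1a, which makes S-adenosylmethionine in adult liver, differed from control in opposite directions without being called. For Gnmt the levels were 2184, 1441 and 1906 CPM in control and 1763, 1253 and 1299 CPM in iron-loaded mice in Trad-KAPA, and at 4658, 2906 and 3744 CPM against 3008, 2476 and 2315 CPM in 3’-LEXO. The diets overlapped in both kits, with log2 differences of -0.43 ± 0.19 (edgeR adjusted p = 0.145) and -0.60 ± 0.22 (edgeR adjusted p = 0.128). In 3’-LEXO DESeq2 called Gnmt (adjusted p = 0.0408), as did edgeR without the expression filter (adjusted p = 0.0363), and in Trad-KAPA edgeR called it when iron-loaded mouse 1 was left out (adjusted p = 0.0467, log2 difference -0.57). Gnmt (ENSMUSG00000002769) lies on the minus strand of chromosome 17 from 46725664 to 46729168.

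Mat1a was at 4331, 3580 and 3444 CPM in control and 6117, 4131 and 4244 CPM in iron-loaded mice in Trad-KAPA, where the groups overlapped. In 3’-LEXO it was at 6076, 5465 and 5877 CPM against 10147, 6219 and 7156 CPM, and every iron-loaded mouse was above the control mice. Iron-loaded mouse 1 was the highest in both kits. The log2 differences were 0.28 ± 0.18 (edgeR adjusted p = 0.300) and 0.37 ± 0.22 (edgeR adjusted p = 0.326). The ratio of Mat1a to Mat2a, the form of most other tissues, differed between diets by -0.16 on the log2 scale in Trad-KAPA (exact permutation test, two-sided, p = 0.6) and by 0.01 in 3’-LEXO (p = 0.9 in the same exact test). Mat1a (ENSMUSG00000037798) lies on the plus strand of chromosome 14 from 41105035 to 41124412.

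**Figure D2:**
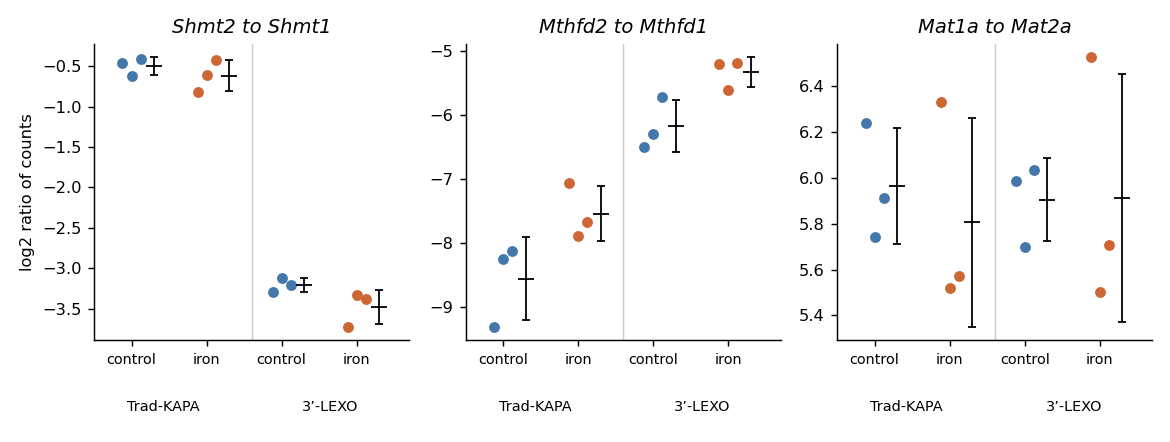
Log2 ratio of the counts of a pair of genes in the same library, by diet and kit, with 1 point per mouse and the mean and SD of 3 mice beside it. The Mthfd2 to Mthfd1 ratio is higher in all iron-loaded points than in the control points of its kit, while the points of the Mat1a to Mat2a ratio overlap.

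**Figure D3:**
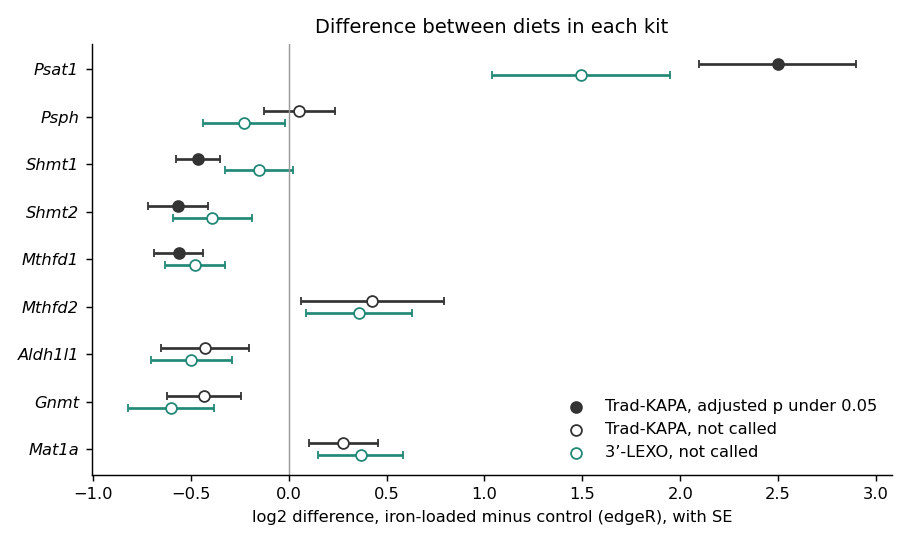
Log2 difference of iron-loaded minus control mice for the 9 tested enzymes from edgeR, with bars for the SE; black circles are Trad-KAPA, green circles 3’-LEXO, and filled circles passed an adjusted p of 0.05. Psat1 stands at 2.498 and 1.49, and the other enzymes lie between -0.60 and 0.43 in both kits.

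Groups without overlap were found for 4 of the 9 enzymes in Trad-KAPA, where 41.2% of all genes tested had this, and for 5 of the 9 in 3’-LEXO (Psat1 and Mat1a higher, Shmt2, Mthfd1 and Aldh1l1 lower), where 31.3% did. The 3 iron-loaded mice were also ranked by distance from the control mean in the direction of the gene's log2 difference. Iron-loaded mouse 1 was the farthest for 8 of the 9 enzymes in Trad-KAPA and for 5 of 9 in 3’-LEXO. For Mthfd1 in 3’-LEXO the ranked mice lay less than 1 CPM apart. The same mouse was the farthest for 61.2% of all genes called in Trad-KAPA and 65.1% of those called in 3’-LEXO. The 10 enzymes together took 0.798% ± 0.107 of the counts in control and 0.806% ± 0.107 in iron-loaded mice in Trad-KAPA (SD, n = 3), and 1.12% ± 0.128 and 1.17% ± 0.220 in 3’-LEXO, less apart between diets than between mice.

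Whether the difference between diets itself depended on the kit was tested as an interaction over the 12 libraries. With edgeR 0 genes of 14384 were called (0%), while 402 had an unadjusted p under 0.05, and DESeq2 also called 0. None of the 9 enzymes had an unadjusted p under 0.05. The lowest were Shmt1, whose log2 difference was higher by 0.31 ± 0.20 in 3’-LEXO (unadjusted p = 0.137 and an adjusted p of 1 in edgeR), and Psat1, whose difference was lower there (-0.997 ± 0.645 on the log2 scale, unadjusted p = 0.145 and an adjusted p of 1 in edgeR). The calls made in Trad-KAPA and not in 3’-LEXO were therefore not shown to differ between the kits. As both kits used the same RNA, they are not independent samples of mice, and this fit held no term for the mouse. With the mouse as a block, the edgeR adjusted p of the interaction was 0.565 for Shmt1 and 0.761 for Psat1.

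The order of the enzymes in control liver spanned from Gnmt and Mat1a at the top to Phgdh. Per kb of merged exons, in Trad-KAPA, Gnmt was at 1529 ± 311 CPM per kb (SD, n = 3) and Mat1a at 1091 ± 138, and these 2 overlapped. Aldh1l1 followed with 333 ± 56.9 CPM per kb, apart from both neighbours. Shmt1, Shmt2 and Mthfd1 stood close to each other, at 80.5 ± 4.92, 71.1 ± 3.92 and 70.1 ± 7.19 CPM per kb, with overlap between neighbours. Far below were Psph at 0.902 ± 0.0925, Mthfd2 at 0.245 ± 0.0769 and Psat1 at 0.147 ± 0.0347 CPM per kb, of which the last 2 overlapped.

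In 3’-LEXO, where a transcript gives reads from its end whatever its length, the order in CPM was Mat1a at 5806 ± 312 (SD, n = 3), Gnmt at 3769 ± 876, Aldh1l1 at 665 ± 70.9, Shmt1 at 662 ± 52.4, Mthfd1 at 182 ± 34.4 and Shmt2 at 71.4 ± 2.03 CPM. Psph at 5.40 ± 0.154, Mthfd2 at 2.54 ± 0.534 and Psat1 at 0.833 ± 0.597 CPM were again the lowest of the 9. Only Aldh1l1 and Shmt1 overlapped as neighbours. So both kits put the same 6 enzymes above the serine synthesis genes and Mthfd2. Gnmt and Mat1a, and Shmt2 and Mthfd1, stand in the other order here than per kb in Trad-KAPA, where each pair overlapped. In CPM, with length left in, Trad-KAPA also had Mat1a (3785) above Gnmt (1844) and Mthfd1 (311) above Shmt2 (221). Within Trad-KAPA the order of these pairs thus differed between the 2 scales. The cause of the other order in 3’-LEXO was not tested.

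**Figure D4:**
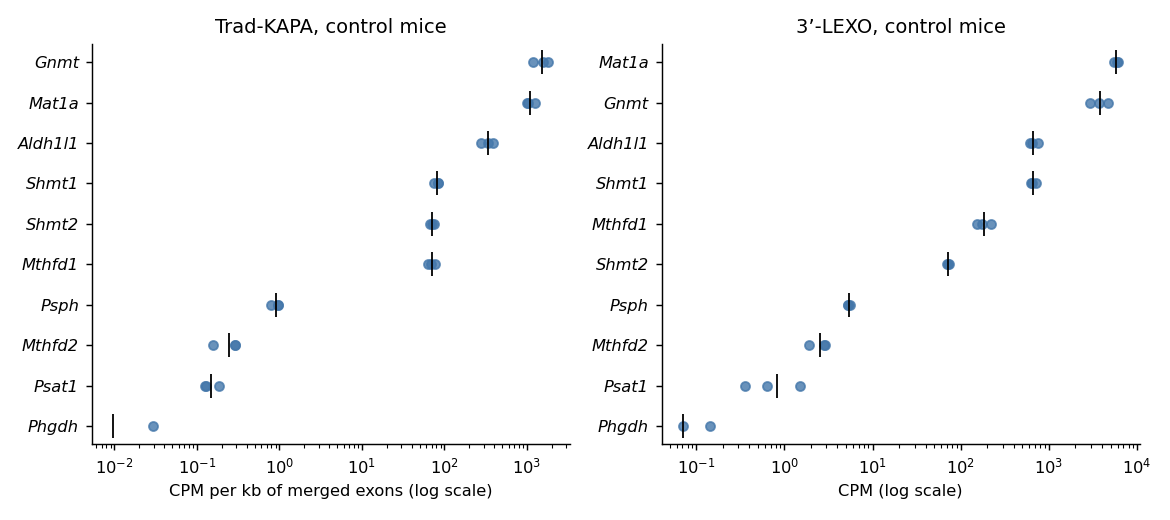
Levels of the 10 enzymes in the 3 control mice on log axes, in CPM per kb of merged exons for Trad-KAPA and in CPM for 3’-LEXO; points are mice, ticks are means, and libraries with 0 counts of Phgdh are not drawn. Psph, Mthfd2, Psat1 and Phgdh lie below 6 on either scale, and the other enzymes lie above 50.

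Between the kits, the level itself differed for 8 of the 9 enzymes, where 77% of 14384 genes were called by edgeR. Mthfd2 was higher in 3’-LEXO by 1.54 ± 0.21 on the log2 scale of CPM, Shmt1 by 1.24 ± 0.10, Gnmt by 0.95 ± 0.14, Mat1a by 0.67 ± 0.13 and Psph by 0.33 ± 0.13. Shmt2 was lower there by 1.55 (log2 difference -1.55 ± 0.13), Aldh1l1 by 1.21 (-1.21 ± 0.16) and Mthfd1 by 0.74 (-0.74 ± 0.09). The adjusted p of these 7 other than Psph were at most 0.000267 (edgeR), and that of Psph was 0.0348, above 0.05 in DESeq2 (0.0527) and in 5 of the 6 fits without 1 mouse. For Psat1 the difference was -0.23 ± 0.32 (edgeR adjusted p = 0.522). These differences compare a level over the whole transcript with one at its end, in counts that the transcript's length enters in Trad-KAPA only, and they are not differences between mice.

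The rest of the pathway was read from 5 lists with 56 further genes, of which 53 were tested in each kit. In Trad-KAPA 7 of them rose and 13 fell, with a median log2 difference of -0.28. Of all genes tested in this kit, 8.77% were called as higher and 8.37% as lower. In 3’-LEXO 4 rose and 6 fell, with a median of -0.25, beside 3.17% and 2.92% of all genes tested. The same shares stand beside the counts of each list below. Called in both kits in the same direction were 9 genes, 4 higher and 5 lower. The share of all genes called in both kits is not given here. Tdh and Folr1 were at the floor of 3 counts in both kits and Aldh1l2 in 3’-LEXO.

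Of the 14 genes of serine and glycine use and transport, 0 rose and 4 of 13 tested fell in Trad-KAPA (Agxt, Gcat, Glyctk and Amt), and 1 of 13 (Amt) fell in 3’-LEXO. Amt, the aminomethyltransferase of the glycine cleavage system, fell from 80.3 ± 9.28 to 47.5 ± 1.97 CPM in Trad-KAPA and from 84.4 ± 11.1 to 48.3 ± 11.1 CPM in 3’-LEXO (SD, n = 3 per diet, edgeR adjusted p = 0.00644 and 0.0338). Agxt, which takes the amino group of alanine to glyoxylate in peroxisomes, fell from 336 ± 23.0 to 199 ± 14.6 CPM in Trad-KAPA (edgeR adjusted p = 0.00657) and was at 368 ± 51.0 and 274 ± 43.1 CPM in 3’-LEXO (edgeR adjusted p = 0.143). Sfxn1, a mitochondrial serine carrier, had log2 differences of 0.04 and 0.09 and was called in neither kit.

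Of 18 genes of folate uptake and interconversion, 16 were tested, and 3 rose and 2 fell in Trad-KAPA, while 2 rose and 2 fell in 3’-LEXO. Mthfd1l, the mitochondrial enzyme that frees formate, rose from 1.71 ± 0.289 to 6.92 ± 0.469 CPM in Trad-KAPA (3.85-fold, edgeR adjusted p = 0.00152) and from 3.71 ± 0.735 to 11.3 ± 1.98 CPM in 3’-LEXO (2.92-fold, edgeR adjusted p = 0.00773). Slc19a1, the reduced folate carrier, rose 1.99-fold and 2.11-fold, and Slc25a32, which carries folate into mitochondria, rose 1.59-fold in Trad-KAPA (edgeR adjusted p = 0.0128). In 3’-LEXO Slc25a32 was 1.80-fold higher without overlap of the groups, not called by edgeR (adjusted p = 0.0625) and called by DESeq2 (adjusted p = 0.0337). Fpgs, which adds the glutamate tail that keeps folates in the cell, fell 2.02-fold in Trad-KAPA, from 246 ± 17.4 to 129 ± 11.5 CPM, and 2.20-fold in 3’-LEXO, from 245 ± 13.7 to 116 ± 17.8 CPM (edgeR adjusted p = 0.00294 and 0.00556). Ftcd, the enzyme of histidine breakdown that passes its carbon to folate, had log2 differences of -0.47 and -0.49 and was called in neither kit.

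Among 11 genes of the methionine cycle and transsulfuration, 2 rose and 4 fell in Trad-KAPA, and 1 rose and 2 fell in 3’-LEXO. Mtrr, which restores methionine synthase to its active form, rose by 0.91 ± 0.23 and 1.27 ± 0.23 on the log2 scale in Trad-KAPA and 3’-LEXO, and Mat2a rose by 0.43 ± 0.13 in Trad-KAPA (edgeR adjusted p = 0.0486). In 3’-LEXO the difference of Mat2a was 0.35 ± 0.15, also without overlap of the groups, and not called (edgeR adjusted p = 0.193). Ahcy, the hydrolase of S-adenosylhomocysteine, fell 1.68-fold and 1.95-fold, and Cbs, which opens transsulfuration from homocysteine and serine, fell 1.67-fold and 1.76-fold. Bhmt, which remethylates homocysteine with betaine, fell from 588 ± 75.8 to 368 ± 5.86 CPM in Trad-KAPA (edgeR adjusted p = 0.0127) and was at 465 ± 138 and 376 ± 100 CPM in 3’-LEXO (edgeR adjusted p = 0.387). Cth, the next enzyme after Cbs, had log2 differences of 0.11 and 0.30 and was called in neither kit.

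Of 5 genes of choline and sarcosine oxidation, Dmgdh and Aldh7a1 fell in Trad-KAPA. In 3’-LEXO edgeR called 0 of them, while both had an unadjusted p under 0.05 and both were called by DESeq2. Sardh, which oxidizes the sarcosine that GNMT makes, had log2 differences of -0.30 and -0.31 and was not called. Of 8 other methyltransferases, As3mt and Tpmt rose and Nnmt fell in Trad-KAPA, and As3mt rose and Nnmt fell in 3’-LEXO. Nnmt, which methylates nicotinamide, had the largest difference of all 56 genes, falling 13.5-fold in Trad-KAPA, from 18.3 ± 6.21 to 1.41 ± 0.415 CPM, and 13.2-fold in 3’-LEXO, from 40.5 ± 17.2 to 3.23 ± 1.65 CPM (edgeR adjusted p = 0.00143 and 0.00197). Pemt, which makes phosphatidylcholine, had log2 differences of 0.27 and 0.26 and was called in neither kit.

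Of the 9 genes called in both kits, Nnmt, Mthfd1l and Fpgs were called in both in each of the 6 fits that left out 1 mouse. The other calls were lost in some of these fits, with edgeR adjusted p from 0.0513 to 0.109. In 3’-LEXO this was so for Amt without any 1 of the control mice or iron-loaded mouse 3. It was so there for As3mt without any 1 of the control mice, and for Slc19a1 without control mouse 2 or 3. Cbs and Ahcy lost their calls there without control mouse 1 or 3 or iron-loaded mouse 3, and Mtrr without control mouse 1 or 3. In Trad-KAPA it was so for Ahcy without control mouse 1 or 3 or iron-loaded mouse 3, and for Mtrr without any 1 of the control mice or iron-loaded mouse 2. Of the 11 genes called in Trad-KAPA and not in 3’-LEXO, Agxt and Bhmt were called in all 6 of these fits in Trad-KAPA, Slc25a32 in 5, Ahcyl2 in 3, and Gcat and Slc46a1 in 2 each. Glyctk, Mat2a, Aldh7a1, Dmgdh and Tpmt were called in 1 of the 6, that without iron-loaded mouse 1. Where these calls were lost, the edgeR adjusted p was from 0.0513 to 0.145. Dmgdh, at an adjusted p of 0.0498 in edgeR, was also not called with DESeq2 size factors (0.0516) or with the replicate number as a block (0.0550), Mat2a was not called with those size factors (0.0513), and Tpmt not with the block (0.0881).

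**Figure D5:**
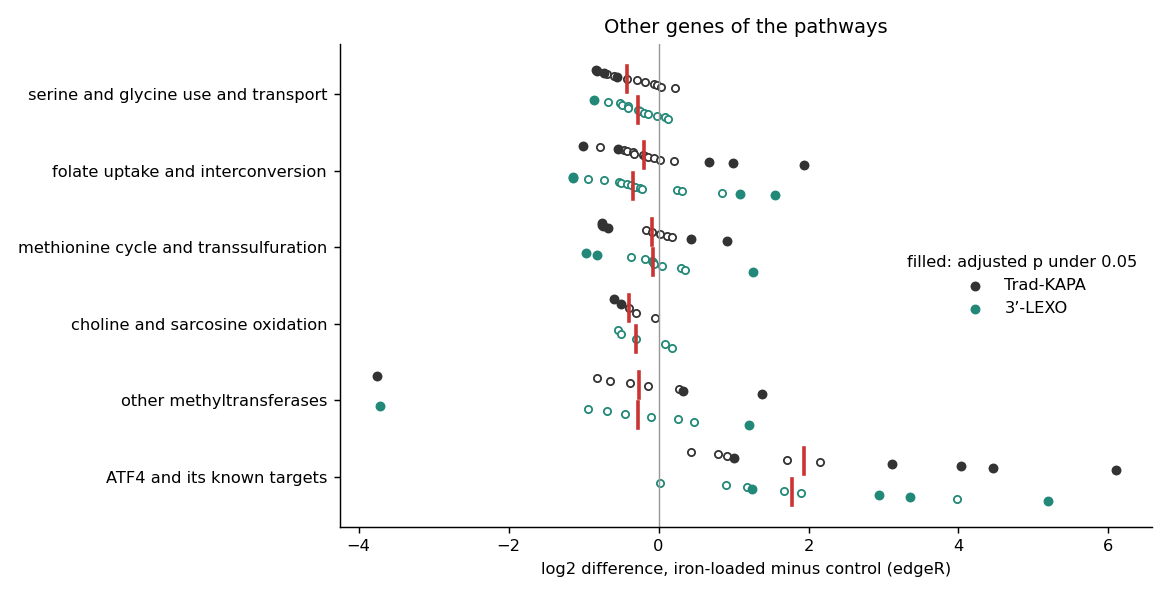
Log2 difference of iron-loaded minus control mice for each tested gene of the 5 pathway lists and of the ATF4 list, black for Trad-KAPA and green for 3’-LEXO; filled points passed an adjusted p of 0.05 in edgeR, and red marks are list medians. Nnmt stands at -3.76 and -3.72, and the medians of the 5 pathway lists lie between -0.42 and -0.07.

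Psat1, Phgdh, Shmt2 and Mthfd2 are known targets of ATF4, the transcription factor of the amino acid response, and 10 genes of this response were read beside them. In Trad-KAPA 5 of the 10 rose (Atf4, Trib3, Asns, Slc7a11 and Nupr1), and in 3’-LEXO 4 did, Nupr1 being not called (edgeR adjusted p = 0.0516). Of all genes tested, 8.77% were called as higher in Trad-KAPA and 3.17% in 3’-LEXO. Asns, the asparagine synthetase, rose from 0.298 ± 0.194 to 21.6 ± 17.8 CPM in Trad-KAPA and from 0.190 ± 0.0409 to 7.59 ± 6.45 CPM in 3’-LEXO (SD, n = 3 per diet, edgeR adjusted p = 0.00363 and 0.00429). Its lowest count was 2 in each kit, and its control mean in 3’-LEXO lay below the floor of 3 counts. Without iron-loaded mouse 1, the log2 difference of Asns was 5.22 in place of 6.09 in Trad-KAPA and 4.24 in place of 5.19 in 3’-LEXO, and it was still called. Atf4 itself rose 2.02-fold, from 59.6 ± 3.61 to 128 ± 66.4 CPM, in Trad-KAPA, and 2.37-fold, from 90.5 ± 5.26 to 225 ± 117 CPM, in 3’-LEXO. Trib3, a pseudokinase that ATF4 induces, was at 23.4 ± 11.6 and 219 ± 262 CPM in Trad-KAPA and at 53.5 ± 28.2 and 438 ± 470 CPM in 3’-LEXO, so that the SD of the iron-loaded mice was above their mean.

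The size of the Trib3 difference rested on iron-loaded mouse 1: its log2 value was 3.12 in Trad-KAPA and 1.48 without that mouse (edgeR adjusted p = 0.00935), and 2.94 and 1.597 (edgeR adjusted p = 0.0130) in 3’-LEXO. That of Atf4 was 1.01 and 0.55 (edgeR adjusted p = 0.00415), and 1.24 and 0.76 (edgeR adjusted p = 0.00700). Without any 1 of the control mice the calls of Atf4 and Trib3 were lost in both kits, with edgeR adjusted p from 0.0699 to 0.1315, and that of Nupr1 was lost in Trad-KAPA. With the replicate number as a block Atf4 was called in neither kit (edgeR adjusted p = 0.0503 and 0.0671). Slc7a11, the cystine transporter, was at 0.0425 ± 0.0369 CPM in control and 1.20 ± 0.221 CPM in iron-loaded mice in Trad-KAPA (SD, n = 3). In 3’-LEXO it was at 0.0951 ± 0.109 and 1.10 ± 0.326 CPM. Its control means lay below the floor of 3 counts, and no library held more than 20 counts of it. It was called in Trad-KAPA in each of the 6 fits without 1 mouse. In 3’-LEXO its call was lost without control mouse 2 or 3 or iron-loaded mouse 3 (edgeR adjusted p from 0.0513 to 0.1012) and with the block (0.0568). Of the enzymes of the same known target group, Psat1 rose in Trad-KAPA, Shmt2 fell there, Mthfd2 was not called in either kit, and Phgdh could not be tested.

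Some markers of other liver cells differed between the diets beside these values. The 8 Kupffer cell markers summed to 381 to 607 CPM in control and 687 to 742 CPM in iron-loaded mice in Trad-KAPA. Marco and Vsig4 were called as higher there. In 3’-LEXO the sums were 882 to 1157 and 1163 to 1411 CPM, with Marco called and Vsig4 higher without overlap. Adgre1 (log2 differences of 0.08 and -0.31), Clec4f and Timd4 overlapped between the diets in both kits. Cd5l, Csf1r and Cd68, not called, were higher without overlap in Trad-KAPA and overlapped in 3’-LEXO. Of 4 neutrophil markers, S100a8 and S100a9 rose in both kits, with sums of 1.01 to 1.75 and 4.00 to 7.45 CPM in Trad-KAPA, while Ly6g was at the floor. Among 5 cholangiocyte markers only Spp1 rose, and Krt7 and Krt19 stayed under 1 CPM on average. Sox9 was lower without overlap in both kits, by log2 differences of -0.57 and -0.66, and was not called (edgeR adjusted p = 0.106 and 0.0569). Epcam overlapped between the diets in both kits. Of 7 periportal hepatocyte markers edgeR called 3 as lower in Trad-KAPA (Gls2, Cyp2f2 and Ass1) and 2 in 3’-LEXO. Of those called in neither kit, Hal and Aldh1b1 were lower and Hsd17b13 higher (log2 0.24 and 0.50), without overlap in both kits. Pck1 overlapped. Of 8 pericentral markers Cyp1a2 and Oat fell in both kits. Glul, Cyp2e1, Slc1a2 and Lgr5 overlapped between the diets in both. Not called, Axin2 was higher without overlap in 3’-LEXO only, and Rhbg lower without overlap in Trad-KAPA only. Of the sinusoidal endothelial markers Lyve1 rose in both kits and Stab2 and Fcgr2b fell in 3’-LEXO, of the stellate markers Des fell in Trad-KAPA, and of the lymphocyte and cell cycle markers 0 were called, with 0 at an unadjusted p under 0.05 and 0 by DESeq2. The 4 red cell markers summed to 19.6 to 151 CPM in control and 16.4 to 28.7 CPM in iron-loaded mice in Trad-KAPA, and 0 were called by edgeR or DESeq2, although all 4 had an unadjusted p under 0.05 in each kit. The part of these cells and zones in the levels of the 10 enzymes was not tested.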

How the data were processed

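Liver RNA of 6 mice was measured in 12 libraries. The authors mapped reads with STAR 2.5.3a to GRCm38 and deposited, for each gene, the count of reads mapped uniquely to its exons, without normalization. The counting program, its annotation and its use of strand are not given in the sources used here. The p-values of the tests between diets within a kit are set against the spread between mice. Those of the kit and of the interaction in the main fit take the 12 libraries as independent. They do not separate the spread between mice from that between libraries of a mouse. Of the 27022 identifiers, 26940 were found in GENCODE M21, which gave symbols, positions and merged exon lengths. Between libraries of a kit and diet the chi-square per degree of freedom was 6.46 to 66.1, so that no library was taken as a duplicate.

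The test was edgeR's quasi-likelihood F test on the counts, after filterByExpr and TMM scaling, and p was adjusted over all genes tested (Benjamini-Hochberg). Versions were 4.0.16 for edgeR, 3.58.1 for limma and 4.3.3 for R. The kit and the interaction were fitted over all libraries, in the main fit without a term for the mouse. DESeq2 1.42.0, other filters and scalings, 10 M counts per library, the replicate or mouse as a block and leaving out each mouse were alternatives. The fits were tested on simulated counts. Other steps used scipy 1.17.1, pandas 2.3.3 and numpy 2.4.6 in Python 3.11.15. Promoters came from RefSeq.

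The same number names the same mouse in both kits; deviations from the group mean correlated between the kits of a mouse with r from 0.461 to 0.795 over 9311 genes, although iron-loaded mice 2 and 3 could not be distinguished by it. Across diets the numbers name no pairs.

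The enzymes and lists were chosen with earlier results of these data known. Genes named beside the 10 enzymes were pathway genes called in both kits in the same direction (at most 14), the 2 most abundant of each list, and ATF4 genes called in both kits; other list genes are named to account for counts, and 1 gene that this rule names is not reported here. A rule to name genes of like pattern applied to enzymes called in both kits and found 0.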

Additional observations from a re-analysis of the deposited data

How the results depend on the processing

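Psat1 kept its direction and its call in Trad-KAPA under each alternative that tested it, with log2 differences from 2.07 to 2.72. The filter that kept genes with a mean of at least 50 counts left Psat1 untested. The enzymes called in Trad-KAPA were 4, 3 with that filter, 3 with the replicate block and 1 to 5 when a mouse was left out. The other one-carbon genes called there were 20, 18 with the replicate block and 10 to 24 without a mouse, and all genes called were 2255, 1922 and 841 to 2803. In 3’-LEXO edgeR called 0 enzymes, also with the replicate block and without any mouse, while 2 were called without the expression filter (Psat1 and Gnmt) and 2 by DESeq2 (Gnmt and Mthfd1). The other one-carbon genes called in 3’-LEXO were 10, 19 without the filter and 3 to 11 without a mouse, and all genes called were 811, 2040 without the filter, 1313 by DESeq2, 436 with the replicate block and 199 to 871 without a mouse. The highest counts came without iron-loaded mouse 1, and the lowest without control mouse 2 (all genes in Trad-KAPA, 841) or control mouse 3 (all genes in 3’-LEXO, 199). The mouse as a replicate block left the enzymes with an interaction at 0 and those with a level that differed between kits at 8, as did exchanging iron-loaded mice 2 and 3, an alternative chosen after seeing the data. The replicate numbers across diets name no pairs (r from -0.174 to 0.106 over the 6 pairs of both kits).

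Values near 0 that were not called changed sign. On the log2 scale in Trad-KAPA, Psph was -0.060 at 10 M counts per library and -0.046 to 0.12 without a mouse, and without a mouse Sfxn1 ranged from -0.054 to 0.13 and Cth from -0.19 to 0.29. The ranges without a mouse in 3’-LEXO were -0.069 to 0.19 for Sfxn1 and -0.30 to 0.21 for the log2 ratio of Mat1a to Mat2a. The cause of these changes was not tested. With 3 mice per diet the exact test of a single ratio cannot pass 0.05, and the counts of Phgdh, Psat1 and Mthfd2 limit what can be seen at this depth.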
